A study of Mus musculus with 6 samples.

Results

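The cytosolic ribosomal proteins are the proteins of the large (60S) and small (40S) subunits of the ribosome that translates nuclear-encoded mRNAs. Members were taken by symbol, as rows named Rpl or Rps followed by a number and at most 1 further letter (a, x, l or y), together with Rplp0, Rplp1, Rplp2 and Rpsa, if they held at least 100 counts in every library. Of 46095 rows in the count table, 24947 of them with a count in any library, 83 carried such a symbol and 70 reached the minimum, 45 of the large and 25 of the small subunit. All 70 passed the filter on low counts that left 14757 genes for testing.

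RNA had been sequenced from brown adipocytes made in culture, the fat cell type that burns fuel for heat. The starting cells were the stromal vascular fraction of brown fat, that is, the preadipocytes and other non-fat cells of a digested depot, from C57BL/6 mice 5 weeks old. Both groups had the same induction of 8 days. For the first 2 days the medium held IBMX at 0.5 mM, insulin at 5 µg/mL and 1 µM each of triiodothyronine, rosiglitazone and dexamethasone, and for the other 6 days triiodothyronine, rosiglitazone and insulin. The groups were 3 control libraries and 3 libraries of U-IRX3ov, a genotype named for overexpression of the transcription factor IRX3 and titled KI. The sources used here do not give the promoter, the construct, the number of mice behind each culture or the genotype of the controls beyond that word. Because nothing states that the libraries came from separate cultures or animals, p-values measure only the spread between these 6 libraries.

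Each ribosome carries a single copy of most of these proteins, arranged around ribosomal RNA, and the stalk proteins Rplp1 and Rplp2 are held by Rplp0 at the site where elongation factors bind. In mammals most of the mRNAs begin with a run of pyrimidines, the 5′ terminal oligopyrimidine (TOP) tract, through which mTORC1 controls their translation. The genes also have many processed pseudogenes, intronless copies made by reverse transcription, whose sequence is close to that of the mRNA.

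The start regions show what the members share beyond their names. In RefSeq promoters of GRCm38.p6, 51 of the 70 members and 10517 of the genes tested could be matched by symbol. The longest unbroken run of C and T on the coding strand within 50 bases of the annotated start had a median of 10 bases in the members and 6 in the genes tested. A run of at least 8 bases was found in 43 of 51 members (84.3%) and in 32.1% of genes tested. The heptamer CCGGAAG, searched on both strands as a core of ETS factor motifs, occurred within the 300 bases of the promoter in 23 members (45.1%) and in 17.5% of genes tested. These are matches of letters in a window and do not place a transcription start. Stretches of 30 bases are printed for 3 genes that fell in U-IRX3ov (Rpl37a, Rpl35 and Rplp0) and 4 that did not pass the test (Rpl11, Rplp2, Rps6 and Rpl38), chosen as examples after their values and sequences were seen; other members have runs as near to the annotated start or nearer. Capitals mark the run, and each is 5′ to 3′ on the coding strand, at chr1:72711273-72711302 (plus), chr2:39005119-39005148 (minus), chr5:115559468-115559497 (plus), chr4:136053361-136053390 (minus), chr7:141447636-141447665 (plus), chr4:86857349-86857378 (minus) and chr11:114668568-114668597 (plus) in the order listed.
Rpl37a: gcgcattgcgTCCCTTCCTCTTCggacttg
Rpl35: gtcggccccgCCCTTTCCTCTTTCTCTCga
Rplp0: gaccgcctggTTCTCCTataaaaggcacac
Rpl11: gggccggaagTCTCCCTCTCTCTTCCTgtt
Rplp2: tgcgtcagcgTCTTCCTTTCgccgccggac
Rps6: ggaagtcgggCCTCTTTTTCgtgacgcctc
Rpl38: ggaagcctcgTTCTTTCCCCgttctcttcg

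The runs were 13 bases in Rpl37a, 18 in Rpl35 and 7 in Rplp0, against 17 in Rpl11 and 10 in each of Rplp2, Rps6 and Rpl38. The median run was 10.5 bases in the 14 matched members that fell and 10 in the other 37.

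Library totals ran from 20094799 to 26755870 counts, and libraries of a group varied with a biological coefficient of variation of 5.12%. Levels are given in CPM, the count scaled to the TMM-adjusted library size, in the order of libraries 1, 2 and 3. Irx3 itself was at 5.11 ± 0.321 CPM (SD, n = 3) in control libraries and at 6.16 ± 0.233 CPM in those of U-IRX3ov, a log2 fold change of 0.27 ± 0.13 (SE) that did not pass the threshold (edgeR adjusted p = 0.112). Whether reads of the construct are counted in this row is not known. Markers of the adipocyte were present in both groups. Among them 9 of 10 were higher in U-IRX3ov, with a summed level of 28730 to 29570 CPM in control and 36330 to 37800 CPM in U-IRX3ov. Of preadipocyte and fibroblast markers 11 of 12 were lower (6637 to 6793 against 3981 to 4306 CPM), as were 10 of 10 tested leukocyte markers (472.6 to 579.7 against 152.3 to 227.3 CPM), while 4 of 7 endothelial markers were higher (19.6 to 23.2 against 39.2 to 44.4 CPM). The T and B cell markers Cd3e and Cd79a had too few counts to test, and the endothelial marker Cldn5 was at 0 in every library. The part of these other cells in the ribosomal protein values was not tested, and in bulk RNA fewer cells of a type and less RNA per cell cannot be told apart.

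As a group the ribosomal protein mRNAs were slightly lower in U-IRX3ov. Their summed share of all counts was 1.06%, 1.03% and 1.14% in control libraries 1, 2 and 3 and 0.937%, 0.890% and 0.883% in U-IRX3ov libraries 1, 2 and 3. The groups did not overlap, and control 3 was the highest of the 6. These shares are of raw totals, without TMM scaling, and the TMM factors differed by group (1.031 to 1.038 in control, 0.9583 to 0.9727 in U-IRX3ov). With library totals as the only scaling 31.6% of all genes tested were lower, against 21.1% with TMM. The members' median log2 fold change was then -0.22, against -0.13 with TMM, so the size of the fall differed with the scaling. The control libraries averaged 1.08% ± 0.0559 (SD, n = 3) and the U-IRX3ov libraries 0.903% ± 0.0290. The large subunit took 0.616% of counts in control and 0.512% in U-IRX3ov, and the small subunit 0.460% and 0.392%.

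Gene by gene, 22 members were lower in U-IRX3ov and 0 were higher at an adjusted p under 0.05 (edgeR quasi-likelihood test, Benjamini-Hochberg over 14757 genes). The lower calls were 31.4% of members, against 21.1% of all genes tested, while 20.2% of all genes were higher and 41.3% passed in either direction. At an unadjusted p under 0.05, 27 members were lower and 1 was higher. DESeq2 called 23 lower (18.5% of all genes) and 0 higher (18.2%), and limma-voom 27 lower (20.7%) and 1 higher (19.9%). Against a 1.2-fold change 1 member, Rpl37a, was lower (10.1% of all genes) and 0 were higher (7.60%), and with library totals as the only scaling 41 were lower (31.6% of all genes) and 0 higher (13.1%). The median log2 fold change was -0.13 against -0.0047 over all genes tested, and 53 of 70 members had a negative value. Among the called members the change ran from -29.8% to -7.90%. The groups did not overlap, with U-IRX3ov lower, in 29 members (41.4%; 25.9% of all genes tested), and in 0 members with U-IRX3ov higher (24.9% of all genes tested).

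**Figure D1:**
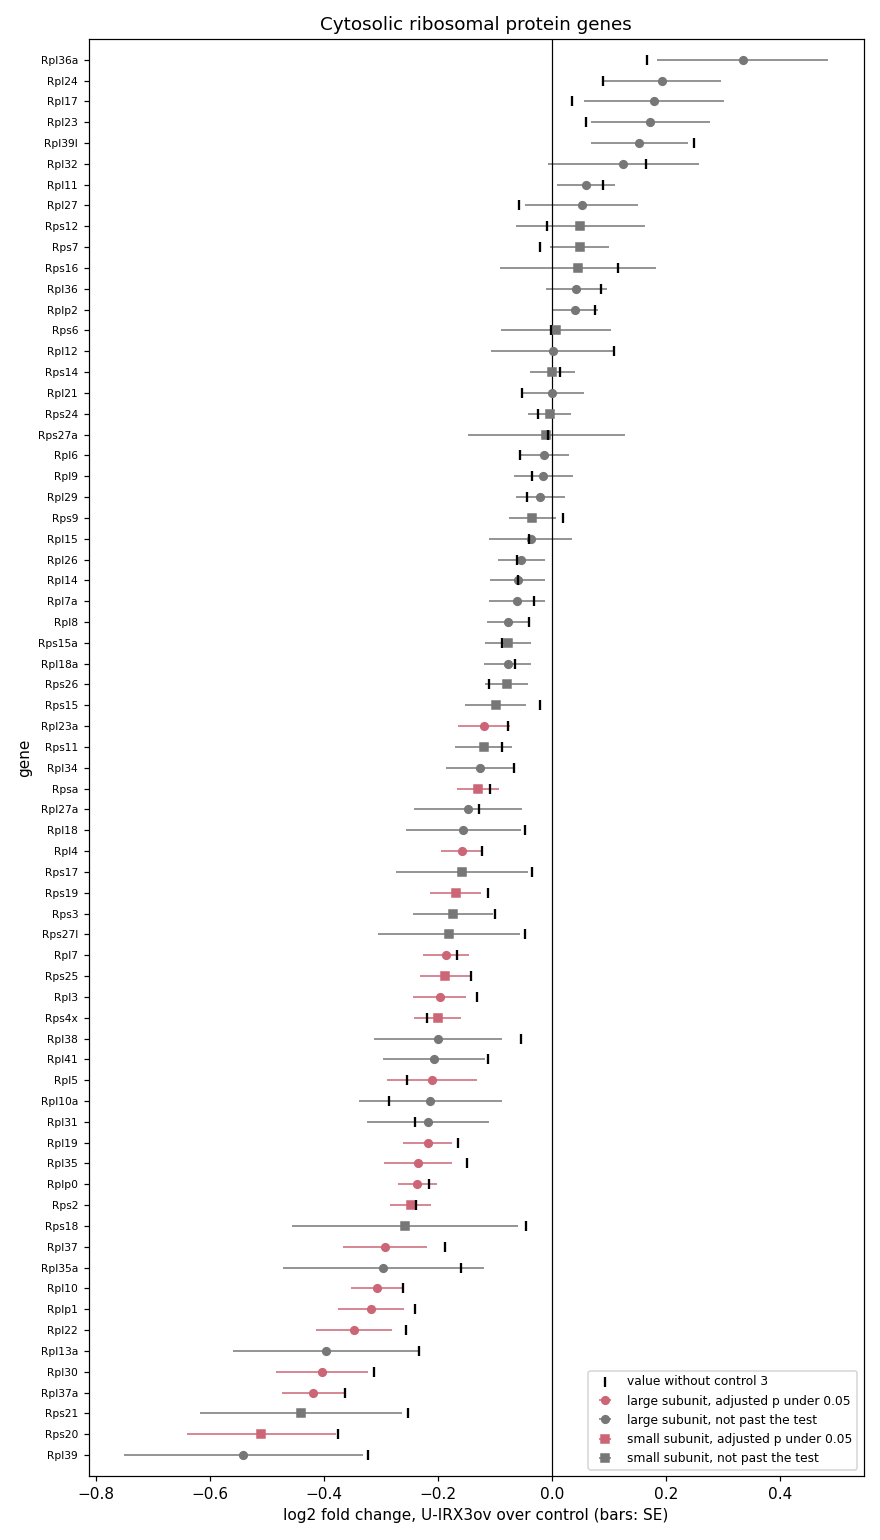
Log2 fold change of U-IRX3ov over control for 68 of the 70 genes (circles, large subunit; squares, small subunit; bars, SE; red, adjusted p under 0.05; black ticks, value without control 3), on a linear log2 axis. The 20 red points all lie left of 0, as do 51 of the 68 points.

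**Figure D2:**
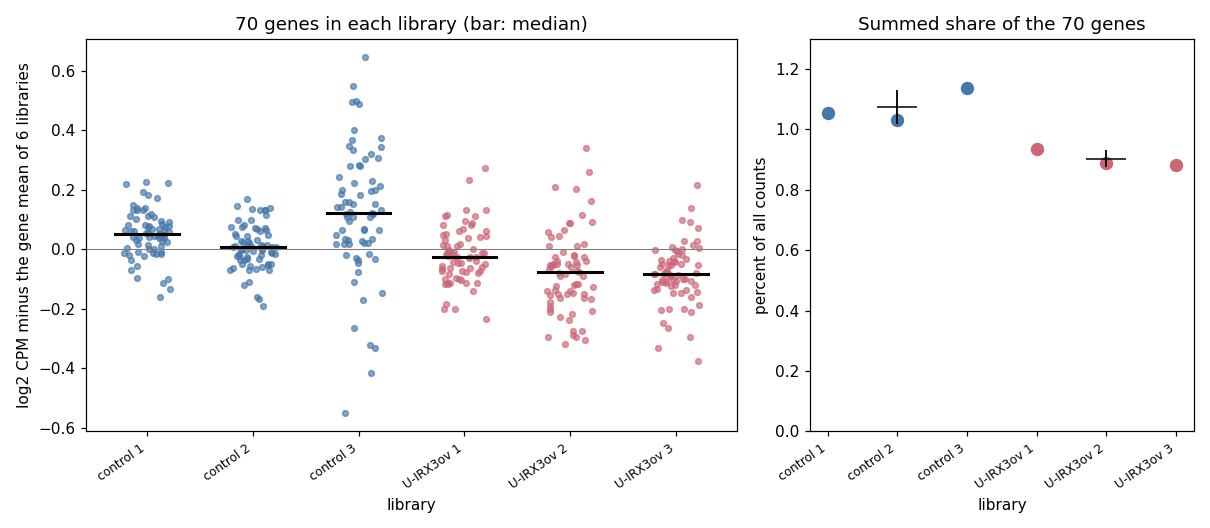
Left, log2 CPM of each of the 70 genes minus its mean over the 6 libraries, with the median as a bar. Right, the summed percent of all raw counts per library, without TMM scaling, with mean and SD of each group. Points of control 3 spread most widely, and the 3 control shares (1.03% to 1.14%) lie above the 3 U-IRX3ov shares (0.883% to 0.937%).

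The large subunit held 14 called falls among 45 members (median log2 fold change -0.13) and the small subunit 8 among 25 (median -0.13). These are 31.1% and 32.0% of the members of each.

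In the stalk, Rplp0 and Rplp1 fell and Rplp2 did not pass the test. Rplp0, which anchors the stalk, had 778, 755 and 801 CPM in control and 667, 657 and 658 CPM in U-IRX3ov. Every control library was above every U-IRX3ov library, and the log2 fold change was -0.24 ± 0.03 (adjusted p = 1.98e-06). Rplp1 had 298, 319 and 360 CPM in control and 264, 264 and 256 CPM in U-IRX3ov, again without overlap (-0.32 ± 0.06, adjusted p = 7.30e-04). Rplp2, which pairs with Rplp1 in the stalk, had 215, 233 and 241 against 231, 244 and 234 CPM, with the groups overlapping and a log2 fold change of 0.04 ± 0.04 (adjusted p = 0.454).

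The largest called falls of the large subunit outside the stalk were those of Rpl37a, Rpl30, Rpl22, Rpl10 and Rpl37. Rpl37a, a zinc-binding protein of the 60S core, had 95.7, 92.4 and 105 CPM in control and 78.1, 67.6 and 73.4 CPM in U-IRX3ov, and its lowest control stood above its highest U-IRX3ov library (log2 fold change -0.42 ± 0.05, adjusted p = 1.90e-06). Rpl30, at the interface of the subunits, had 142, 139 and 168 CPM in control and 120, 106 and 113 CPM in U-IRX3ov (-0.40 ± 0.08, adjusted p = 0.00525). In both genes the groups did not overlap.

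Rpl22, near the mouth of the tunnel through which the new chain leaves, had 75.3, 80.4 and 93.4 CPM in control and 67.8, 64.4 and 63.4 CPM in U-IRX3ov (-0.35 ± 0.07, adjusted p = 5.84e-04). Its paralog Rpl22l1, which the symbol rule leaves out, fell as well, from 24.6 ± 2.41 to 21.1 ± 0.188 CPM (-0.22 ± 0.08, adjusted p = 0.0182). Rpl10, which joins the 60S subunit late in its assembly, had 114, 120 and 128 CPM in control and 99.8, 91.8 and 101 CPM in U-IRX3ov (-0.31 ± 0.05, adjusted p = 5.12e-06). The groups of Rpl22 and Rpl10 did not overlap. Rpl37 had 46.0, 43.9 and 55.3 against 41.5, 37.9 and 39.0 CPM (-0.29 ± 0.07, adjusted p = 0.00311). The groups of Rpl37 were separate, with controls 1 and 2 close above U-IRX3ov 1. Its value was -0.19 without control 3, still past the threshold, and its call was lost in the sum with its copies (-0.30, edgeR adjusted p = 0.0515).

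Of 9 proteins that line the exit tunnel or its rim, 5 fell: Rpl22, Rpl35, Rpl19, Rpl4 and Rpl23a. This is 55.6% of a small set, beside 31.4% of all members and 21.1% of all genes tested. A difference from the other members was not tested. Rpl4 reaches into the tunnel and was one of the more abundant members, with 526, 506 and 556 CPM in control and 486, 473 and 465 CPM in U-IRX3ov (-0.16 ± 0.04, adjusted p = 0.00108). Rpl35, Rpl19 and Rpl23a, named after their values were seen, had log2 fold changes of -0.24 ± 0.06, -0.22 ± 0.04 and -0.12 ± 0.05, or -0.15, -0.17 and -0.08 without control 3. The call of Rpl23a was lost without control 3 and in the sum with its copies (-0.17, edgeR adjusted p = 0.0572). Rpl39, a very small protein of the tunnel wall named after its values were seen, had the most negative value of all members but did not pass the test. It had 71.6, 79.4 and 113 CPM in control and 63.5, 58.8 and 58.7 CPM in U-IRX3ov (-0.54 ± 0.21, adjusted p = 0.119). Its groups did not overlap, yet control 3 lay 0.58 log2 units above the mean of controls 1 and 2, and without control 3 it was called lower (-0.32).

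Rpl5 and Rpl11 join the 5S ribosomal RNA in a particle that, outside the ribosome, binds and inhibits Mdm2, the ubiquitin ligase of p53. Rpl5 had 23.2, 20.9 and 20.1 CPM in control and 17.3, 19.1 and 19.2 CPM in U-IRX3ov (-0.21 ± 0.08, adjusted p = 0.0341). Rpl11 had 66.7, 67.7 and 71.7 against 76.6, 68.0 and 69.8 CPM (0.06 ± 0.05, adjusted p = 0.375). The groups were separate but close for Rpl5 and overlapped for Rpl11, and the call of Rpl5 was lost without control 1 (-0.15), U-IRX3ov 1 (-0.16) or U-IRX3ov 3 (-0.23), in the sum with its copies (-0.09) and with DESeq2 (-0.21). Of 15 p53 target genes 11 were lower (73.3%, against 21.1% of all genes tested) and 2 higher (13.3% against 20.2%). Among the lower ones were Ccng1 (-0.39 ± 0.03, adjusted p = 1.85e-10), Eda2r (-0.51 ± 0.05) and Plk2 (-0.43 ± 0.04).

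Among other large-subunit members, Rpl3, which shapes the peptidyl transferase centre, had 167, 158 and 185 CPM in control and 147, 149 and 149 CPM in U-IRX3ov (-0.20 ± 0.05, adjusted p = 0.00130), without overlap. Rpl13a, a 60S protein also known for binding mRNAs outside the ribosome, had 256, 264 and 354 against 239, 205 and 219 CPM (-0.40 ± 0.16, adjusted p = 0.136). Its groups did not overlap, but control 3 stood 0.45 log2 units above the other controls, and without control 3 it was called lower (-0.23). With all 6 libraries DESeq2 (-0.39) and limma-voom (-0.38) also called it lower. Rpl38, known for a role in translating Hox mRNAs, had 19.9, 19.4 and 26.1 against 19.6, 16.7 and 20.6 CPM (-0.20 ± 0.11, adjusted p = 0.178), with overlap; its value was -0.05 without control 3 and -0.12 without U-IRX3ov 2.

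In the small subunit the largest called falls were those of Rps20 and Rps2. Rps20, a protein of the head, had 122, 130 and 163 CPM in control and 100, 93.4 and 97.2 CPM in U-IRX3ov (-0.51 ± 0.13, adjusted p = 0.0369). Control 3 was again the highest, by 0.37 log2 units over the other 2 controls, and without it the log2 fold change was -0.38 and still past the threshold. The call was lost without control 2 (-0.55) or without any 1 of the U-IRX3ov libraries (-0.54, -0.48 and -0.51 without libraries 1, 2 and 3). Rps2, near the entry of the mRNA channel, had 368, 360 and 371 CPM in control and 319, 301 and 306 CPM in U-IRX3ov (-0.25 ± 0.04, adjusted p = 2.04e-06). The controls of Rps2 lay close together and its groups did not overlap.

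Of 11 members in the head of the small subunit 4 fell (36.4%, beside 31.4% of all members), Rps20, Rps19 and Rps25 among them. Rps19, whose loss in humans causes Diamond-Blackfan anaemia, had 139, 142 and 158 CPM in control and 133, 131 and 128 CPM in U-IRX3ov (-0.17 ± 0.04, adjusted p = 0.00286). Its groups did not overlap, and its value was -0.11 without control 3. Rps3, which lies at the mRNA entry and also acts in DNA repair, had 348, 335 and 397 against 341, 310 and 306 CPM (-0.17 ± 0.07, adjusted p = 0.0836), with overlap, and without control 3 its value was -0.10. It was called lower without control 2 (-0.22), without U-IRX3ov 1 (-0.22) and by limma-voom (-0.17). Rps18, a common reference gene for quantitative PCR, had 28.5, 24.2 and 39.0 against 25.9, 24.9 and 25.8 CPM (-0.26 ± 0.20, adjusted p = 0.381). Its U-IRX3ov libraries all lay within the range of the controls; it was called lower without control 2 (-0.40) and stood at -0.05 without control 3.

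Rpsa, the laminin receptor precursor of the 40S subunit, had 494, 463 and 500 CPM in control and 458, 436 and 438 CPM in U-IRX3ov (-0.13 ± 0.04, adjusted p = 0.00570). Rps4x, encoded on the X chromosome, had 337, 312 and 313 against 296, 269 and 272 CPM (-0.20 ± 0.04, adjusted p = 2.51e-04). In both genes the groups did not overlap. Of the 4 X-linked members 2 fell, Rpl10 and Rps4x, and Rpl39 and Rpl36a did not pass the test.

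A further set of members was nearly level between the groups. Rps24, the most abundant member per kilobase, had 411, 387 and 384 CPM in control and 410, 380 and 388 CPM in U-IRX3ov (log2 fold change -0.0040, adjusted p = 0.944). Rps14, a protein of the decoding platform whose loss is known from the 5q- syndrome, had 191, 177 and 190 against 190, 188 and 181 CPM (0.0009, adjusted p = 0.988). The groups overlapped in both. Rps6, the substrate of S6 kinase downstream of mTORC1, had 11.9, 13.0 and 12.2 against 13.3, 11.9 and 11.9 CPM (0.01 ± 0.10, adjusted p = 0.960). Its SE was wider than those of Rps24 and Rps14 (0.04 each), and its row held fewer counts.

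The paralogs did not pass the test. Rps27l, a close relative of Rps27 that is also a p53 target, had 102, 98.4 and 130 CPM in control and 96.0, 95.0 and 101 CPM in U-IRX3ov (-0.18 ± 0.12, adjusted p = 0.329), and its value without control 3 was -0.05. Rpl39l, the autosomal paralog of Rpl39 known from the testis and named after its values were seen, had 20.2, 20.1 and 24.4 against 26.6, 23.4 and 21.8 CPM (0.15 ± 0.08, adjusted p = 0.159). The groups overlapped in both genes. Without control 3, Rpl39l was the 1 member called higher (0.25, adjusted p = 0.0186, edgeR), where 18.5% of all genes tested were.

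**Figure D3:**
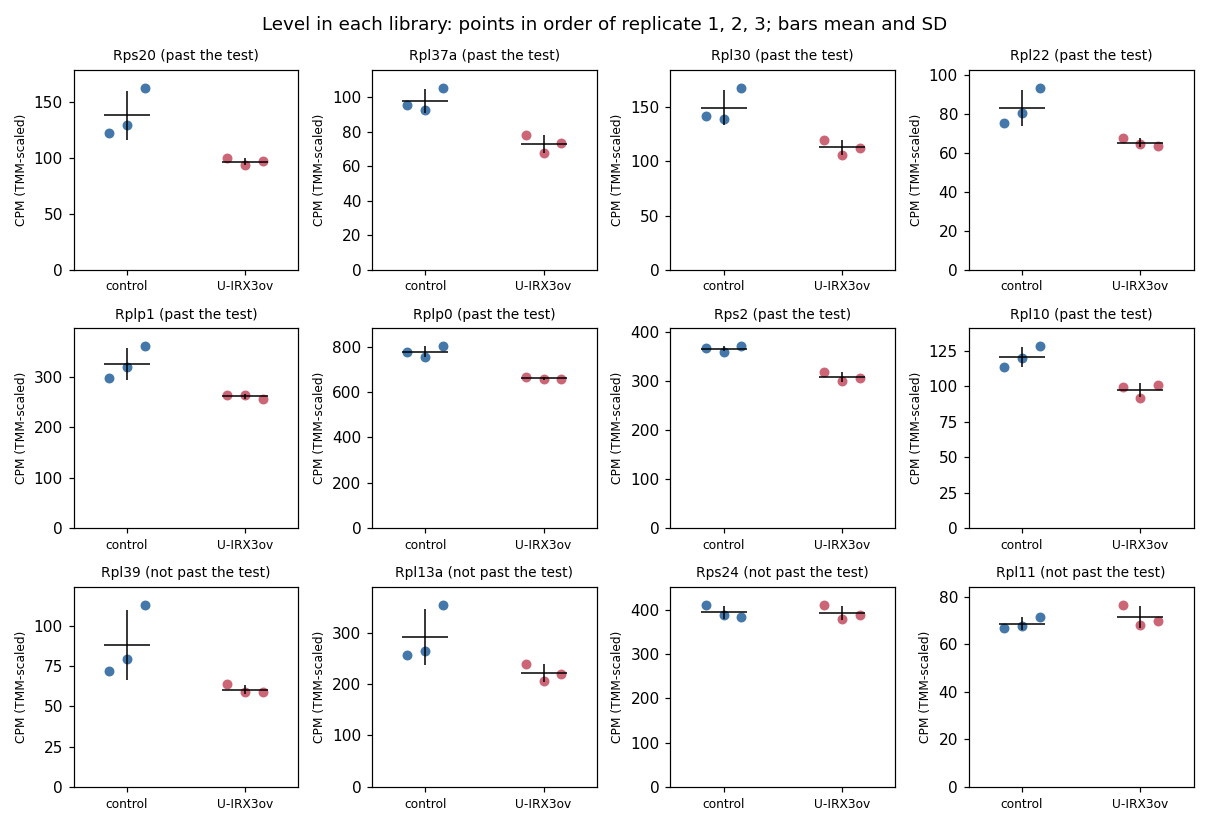
Level of 12 genes in each library, in CPM on linear axes that start at 0, with points in the order of replicates 1, 2 and 3 and with mean and SD per group. The 8 genes past the test, from Rps20 to Rpl10, show separated groups; Rpl39 and Rpl13a also do but with a high control 3, and Rps24 and Rpl11 overlap.

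Levels per kilobase of annotated transcript spanned 143-fold across proteins that the ribosome holds in near-equal numbers. Rps24 (840 CPM per kilobase), Rpl41 (689) and Rplp1 (588) were highest, and Rps16 (5.89), Rpl10a (8.77) and Rpl5 (9.76) lowest. Rpl41, the shortest ribosomal protein, had 305, 299 and 364 CPM in control and 296, 267 and 276 CPM in U-IRX3ov (-0.21 ± 0.09, adjusted p = 0.128). Its groups were separate, and it was called lower without control 3 (-0.11), without control 2 (-0.26) and by limma-voom (-0.20). Rps16 and Rpl10a, both of the low group, gave log2 values of 0.05 ± 0.14 (adjusted p = 0.818) and -0.21 ± 0.13 (adjusted p = 0.185). The lengths come from 1 GENCODE transcript a gene, and a longer model than the one expressed lowers the value. Most counts of the 3 lowest genes and their copies were in the rows of the copies (62.0% for Rps16, 88.5% for Rpl10a and 57.4% for Rpl5), so levels of single genes, and the span between them, are uncertain.

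Rows of copies held part of the sequence. Of the 50-base windows of a member's transcript, a median of 58.7% occurred in other annotated transcripts, from 0% (Rpl39l among them) to 95.1%, and 44 members shared at least 50% of theirs. The table held 508 rows of pseudogenes and predicted genes that share sequence with members or are named as their pseudogenes, 322 of them with a count. They took 287710 counts against 1446102 in the members, and for 19 members the copies held more counts than the gene, as for Rpl10a, where they had 88.5% of both. The copies' share of raw counts, also without TMM scaling, was 0.214% ± 0.0102 in control and 0.180% ± 0.00368 in U-IRX3ov, without overlap between the groups. The sources used here do not say how reads that match several places were counted. When each member was summed with its copies, 26 were lower (21.3% of all features tested) and 0 higher (20.4%), with a median of -0.14, and 19 of the 22 falls were among the 26. Summed and without control 3, 31 were lower (19.3%) and 1 was higher (18.9%).

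Of 51 members at 50 CPM or more in control 19 were lower (37.25%), against 3 of 19 below that level (15.79%). Over all genes tested, at any level, 21.1% were lower. That share was not measured at each level, so the difference cannot be read as particular to the members. A test of that difference was not made. Across the 70 members the Spearman correlation of mean CPM with log2 fold change was -0.28, over genes that share the same 6 libraries.

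At the minimum of 100 counts the members just inside were Rps27a (lowest library 106 counts), Rps16 (108) and Rpl32 (111), and the symbols just outside were Rpl28 (91), Rpl13 (85) and Rps23 (64). Rps27a, made as a fusion with ubiquitin, stood at a log2 fold change of -0.01 ± 0.14 (adjusted p = 0.964) and Rpl32 at 0.13 ± 0.13 (adjusted p = 0.483). The 13 symbols outside also include Rps27, with 34 to 61 counts a library, although it is a standard member of the ribosome.

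Control 3 stood apart from the other controls in these genes. In it 30.0% of members lay more than 0.25 log2 units from the mean of the other controls (16 above and 5 below), whereas in the other libraries, each against the rest of its group, 1.43% to 12.9% did. Over the 10082 genes with at least 100 counts in every library the share was 5.90% in control 3 and 3.87% to 5.16% in the others. Rpl39 (0.58), Rps18 (0.57), Rps21 (0.50) and Rpl13a (0.45) were highest in it relative to the other controls, and Rpl36a (-0.57), Rpl17 (-0.47), Rpl23 (-0.36) and Rpl27 (-0.35) lowest; genes here outside the naming rule were named after their values were seen.

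The deviation of control 3 went with transcript length. Over 9782 genes its Spearman correlation with length was -0.31, a description across genes of 1 library. In the other libraries, each against the rest of its group, the correlation ran from -0.11 to 0.22. Over the members alone it was -0.21 in control 3 and 0.27 in control 1. Among non-members the median deviation of control 3 was 0.12 for the 290 genes under 600 bases. It was 0.04 for 2968 of at least 600 but under 2000 bases and -0.02 for 6454 longer ones. The part of this in the members' values was not tested, and the result without that library was measured. Without control 3, 25 members were lower (19.4% of all genes tested were) and the median was -0.066, nearer to 0 than the -0.13 with all libraries. Of the 22 falls 20 were called in both; 2 were called only with control 3, Rpl23a (-0.08 without it) among them, and Rpl39, Rps21, Rpl13a, Rpl41 and Rps26 only without it. The falls of Rpl37a (-0.36), Rplp0 (-0.22), Rps2 (-0.24) and Rpl10 (-0.26) were nearly as large without it. Of the 22, 17 were lower with and without control 3 and with and without the copies.

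**Figure D4:**
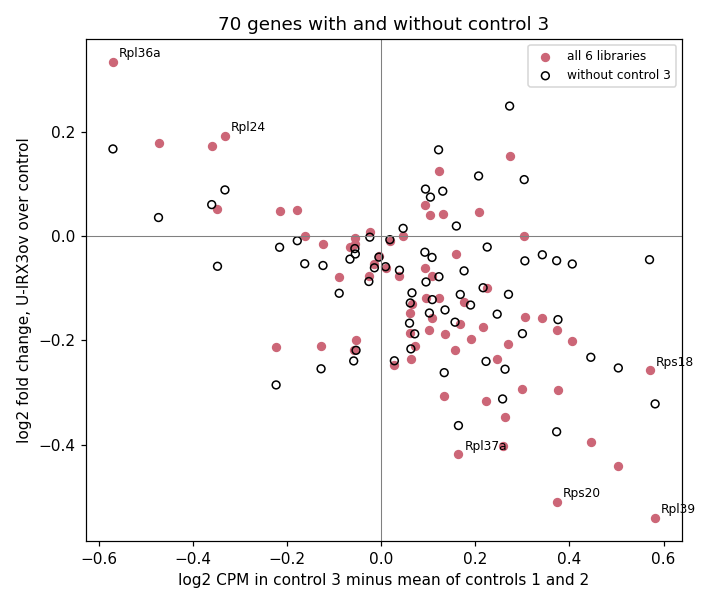
Log2 fold change of the 70 genes against the log2 difference of control 3 from the mean of controls 1 and 2, with all libraries (red) and without control 3 (open circles). With all libraries the points slope down from Rpl36a to Rpl39 (Spearman -0.57, where both axes use control 3), and without it the open circles lie closer to 0.

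Genes around the ribosome did not move as one. Beside the list counts that follow, 20.2% of all genes tested were higher and 21.1% lower. Of the ribosomal proteins outside the symbol rule, Fau, which gives Rps30 (0.12 ± 0.10, adjusted p = 0.365), and Rack1, a 40S scaffold protein (-0.09 ± 0.04, adjusted p = 0.0867), did not pass. Of 12 genes listed under elongation and termination, not all of them factors proper, 5 fell (41.7%) and 0 rose (median -0.04). The kinase gene Eef2k (-0.20 ± 0.07) was 1 of the 5. The most abundant, Eef1a1 (-0.0023 ± 0.04) and Eef2 (0.05 ± 0.03), did not pass. Among the falls were Eef1b2 (-0.24 ± 0.04, adjusted p = 1.00e-05) and Eef1g (-0.23 ± 0.04), subunits of the exchange factor that recharges eEF1A, and Eif5a2 (-0.54 ± 0.10).

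A list of other RNAs known to carry a TOP tract, the non-coding Gas5 and Snhg transcripts among them, gave 3 falls and 1 rise among 13 (median -0.08). The list is partial and leaves out elongation and initiation factors, which were counted in lists of their own. Its shares hold for these 13 only. The falls were 23.1%, near the 21.1% of all genes tested, and the rises 7.69% against 20.2%. The rise was that of Naca (0.12 ± 0.04, adjusted p = 0.0161). Nap1l1, a histone chaperone, fell from 252 ± 13.7 to 186 ± 3.76 CPM (-0.44 ± 0.04, adjusted p = 6.80e-10), and Vim, the intermediate filament of mesenchymal cells, and Npm1, a nucleolar chaperone, fell by 0.23 and 0.13 on the log2 scale. Of 38 initiation factors 9 rose (23.7%) and 2 fell (5.26%), with a median of 0.04. Eif1a (0.25 ± 0.04), Eif5 (0.22 ± 0.04) and Eif3l (0.23 ± 0.04) were highest in rank by p.

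Few factors that make ribosomes passed the test. Of 48 biogenesis factors 4 rose and 4 fell (median 0.01), and 40 did not pass. Each direction held 8.33%, below the 20.2% higher and 21.1% lower of all genes tested. Ncl, the main nucleolar RNA-binding protein, was among the falls (-0.15 ± 0.04, adjusted p = 8.39e-04), with Npm3 (-0.36 ± 0.09) and Gnl3l (-0.24 ± 0.06). Of 18 genes of RNA polymerase I and rDNA transcription 3 rose (16.7%), with Polr1d (0.42 ± 0.05) and Taf1d (0.33 ± 0.05) leading. In the same list 1 fell (5.56%), Polr2l (-0.23 ± 0.06). Of 11 genes of the MYC network 3 rose (27.3%) and 0 fell: Myc (0.41 ± 0.06, adjusted p = 1.30e-06), its antagonist Mxi1 (0.90 ± 0.07) and Mga (0.16 ± 0.04).

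Of 27 genes of mTORC1 and its regulators 10 rose (37.0%) and 3 fell (11.1%), with a median of 0.10. They included the kinase Mtor, from 61.5 ± 5.89 to 94.8 ± 4.59 CPM (0.62 ± 0.06, adjusted p = 3.49e-08), its inhibitor Deptor (0.65 ± 0.05) and the translation repressor Eif4ebp2 (0.42 ± 0.04). Integrated stress response targets gave 3 rises and 1 fall among 14 (median 0.01), and cell cycle genes 1 rise and 5 falls among 20 (median -0.19).

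Most genes for the mitochondrial ribosome, which translates the mRNAs of mitochondrial DNA, were higher in U-IRX3ov. Of 76 mitochondrial ribosomal protein genes tested 64 rose and 1 fell, with a median of 0.33, beside the 0 of 70 and 22 of 70 for cytosolic members. Mrpl51 rose from 113 ± 1.12 to 164 ± 1.26 CPM (0.53 ± 0.04, adjusted p = 3.63e-12), Mrps2 by 0.58 ± 0.04 and Mrpl38 by 0.60 ± 0.05 on the log2 scale. Both sets were read from 1 fit of the same libraries; the difference between the sets was not tested.

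**Figure D5:**
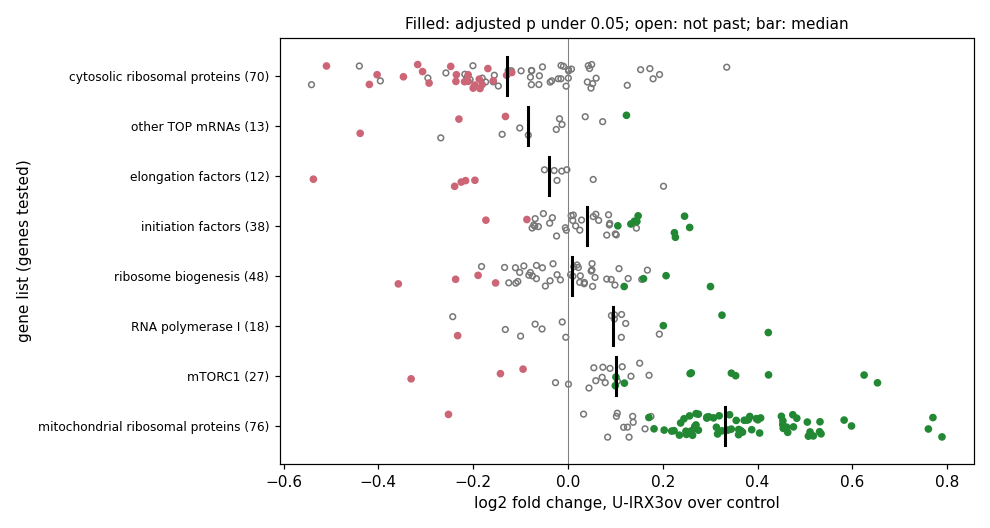
Log2 fold change of the genes in 8 lists (filled, adjusted p under 0.05, green higher and red lower; open, not past; black bar, median; number of genes in brackets). Cytosolic ribosomal proteins have a median of -0.13 with 0 filled points right of 0, and mitochondrial ribosomal proteins a median of 0.33 with 64.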

How the data were processed

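The values are raw counts of reads for each gene symbol, deposited by the authors as 1 table with a column for each of the 6 libraries, named as in the titles. The submitters' processing notes name HISAT2 2.0.4 and the build mm10. The sources used here do not name the program that counted, its annotation or its use of strand. Genes were filtered with filterByExpr, scaled by TMM and tested in R 4.3.3 with edgeR 4.0.16: a robust quasi-likelihood F test on all 6 libraries, with group as the only term, Benjamini-Hochberg adjustment over 14757 genes and a threshold of 0.05. An adjusted p with no tool named comes from that test. An SE is the log2 fold change divided by the square root of F. Positions and transcript lengths came from GENCODE M21 for GRCm38, the assembly of mm10. A copy is a pseudogene, a predicted gene or a row with a name ending in rt. It shares at least 50 windows of 50 bases, and at least 10% of the windows, with a member. Rows named as a pseudogene of a member were included without that condition. Summing members with copies was chosen after seeing the data.

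The members and the gene lists were chosen with earlier results of these data known. Named members were the 8 lower ones with the largest change, the 3 highest and 3 lowest per kilobase, the 3 on each side of the count minimum and 18 core genes. Other members named in the text were chosen after their values were seen. Up to 3 called genes with the smallest p were named from other lists on translation and its control, with Fau, Rack1 and Irx3. From those lists Eef2k, Eef1a1, Eef2 and Naca were named after their values were seen. Some genes are counted in the totals but not reported here one by one. The alternatives were other scalings, filters and count minimums, DESeq2 1.42.0, limma-voom (limma 3.58.1), a threshold of 0.01, a minimum change of 1.2-fold, a replicate block and the removal of each library. Scripts were tested on simulated data. Over genes, the chi-square per degree of freedom was 2.92 to 4.91 between libraries of the same group, above counting noise.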

Additional observations from a re-analysis of the deposited data

How the results depend on the processing

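The count of 22 lower members was 41 with library totals alone, a scaling that moved the median of all genes to -0.10 and their calls from 2978 higher and 3120 lower to 1935 and 4670 (31.6% of genes lower); the members' median was then -0.22. It was 1 (Rpl37a) in the test against a 1.2-fold change, where 10.1% of genes were lower. The count of 0 higher members was 3 with no filter on low counts (Rpl23, Rpl24 and Rpl36a; 12.0% of all genes were higher and 12.5% lower in that fit) and 1 with limma-voom (Rpl24); the cause was not tested. Leaving out 1 library at a time gave 0 to 3 higher and 19 to 25 lower members (17.3% to 18.5% of all genes higher and 18.5% to 19.4% lower in the same fits), a median of -0.17 to -0.066, and a difference in share of -0.194 to -0.140 percentage points against -0.172 with all libraries. The 3 higher calls came without control 1 (Rpl23, Rpl24 and Rpl36a), and 1 each came without control 3 (Rpl39l) and without U-IRX3ov 3 (Rpl36a). Nothing states that the numbers 1 to 3 pair the libraries. Correlations of same-numbered deviations were small (0.0222, 0.0745 and 0.0514) but above those of differently numbered ones (-0.0678 to 0.0190). With so few libraries they cannot settle whether pairs exist. With the replicate block 26 members were lower and 3 higher (Rpl23, Rpl24 and Rpl36a), with a median of -0.13. Of all genes 21.4% were lower and 20.4% higher in that fit. Rps27l (-0.17) and Rpl41 (-0.20) were called lower with the block.

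Across 28 named members and 17 alternatives, 412 values kept direction and call, 23 lost the call, 18 gained one and 23 changed sign, the last all in members near 0 that were not called. The lost calls include 6 for Rpl5 and 5 for Rps20. The sign changed with library totals in Rpl11 (-0.0368), Rps14 (-0.0954), Rps16 (-0.0512) and Rps6 (-0.0887), with upper-quartile scaling in Rps14 (-0.0153) and Rps6 (-0.0085), with a filter of 1 CPM in Rps14 (-0.0057), with DESeq2 and its size factors in Rps24 (0.0004) and with copies summed in Rps16 (-0.1485). Values also crossed 0 when 1 library was left out, in Rps14 (-0.0339 to 0.0223), Rps16 (-0.0468 to 0.1541), Rps24 (-0.0357 to 0.0276), Rps27a (-0.1113 to 0.1421) and Rps6 (-0.0538 to 0.0437). The SE was 0.14 in Rps16 and in Rps27a, whose lowest libraries held 108 and 106 counts. Wider errors occurred in better-counted members with a high control 3. Examples are Rpl39 (SE 0.21, lowest library 1137 counts) and Rps18 (SE 0.20, lowest library 486 counts).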
